A study of Mus musculus with 8 samples.

Results

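Fatty acid oxidation is run by 2 sets of enzymes, one in mitochondria and one in peroxisomes, and 33 of their genes were followed here in a mouse melanoma line given 4-OI. The genes were a named list of transporters, dehydrogenases, hydratases, thiolases and helper proteins, matched by gene symbol, and each stood on 1 row of the 55492 genes in the tables. By textbook location, 18 act in mitochondria, 9 in peroxisomes and 3 in both (Eci2, Ech1, Crat). The remaining 3 (Acot7, Slc27a1, Acsl1) were counted with neither organelle. The list was drawn up with earlier results of these data known, so its counts describe these genes and are no independent evidence about the pathway.

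The cells were YUMM5.2, a single established melanoma line of C57B/6J background, and RNA was sequenced from 4 libraries of solvent-treated control cells (DMSO) and 4 libraries of cells given 4-OI, each after 20 h. The labels call 4-OI a permeable itaconate; in this field the name stands for 4-octyl itaconate, an ester that enters cells. The sources used here give no dose. The series title names the itaconate transporter SLC13A3 and ferroptosis, and the single contrast asks how transcripts differ between 4-OI and DMSO. The labels speak of 4 independent experiments but tie no library to a culture of its own, so each p-value reflects the spread among these 8 libraries alone, and that spread may be technical. Total counts ran from 22962963 to 31361677 per library. Pigment cell markers were nearly absent: Mlana, Pmel, Tyr, Tyrp1, Dct and Sox10 had at most 8 counts in any library, while Gpnmb and Mitf were the 2 of 12 such markers that reached a mean of 1 TPM (a level scaled for transcript length and depth); the summed level of the 12 was 65.5 to 78.2 TPM with DMSO and 64.5 to 74.3 TPM with 4-OI. Gpnmb made up most of it and fell by 0.09 on the log2 scale (edgeR BH-adjusted p = 0.00978), while Mitf rose by 0.64 (edgeR BH-adjusted p = 4.49e-07). The part of these markers in the results below was not tested. Of 24 markers of immune, endothelial, epithelial, fat, liver and fibroblast cells, 21 stayed under a mean of 1 TPM (Adgre1, Cidea, Kdr, Lum and Lyz2 were among those at 0 throughout, and Cd68, Dcn and Pdgfra were above), and the summed level overlapped between the groups, at 35.5 to 37.6 TPM with DMSO and 35.7 to 36.5 TPM with 4-OI. Most of that sum was Pdgfra, which rose by 0.10 on the log2 scale (edgeR BH-adjusted p = 0.0137), while the fibroblast marker Dcn fell by 1.39 from a low level, 1.78 ± 0.35 to 0.68 ± 0.13 CPM (SD, n = 4; edgeR BH-adjusted p = 2.66e-05).

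In a cell, a fatty acid is first joined to coenzyme A. Long chains enter mitochondria on carnitine and are then shortened in a repeating cycle: an acyl-CoA dehydrogenase removes electrons, a hydratase adds water, a second dehydrogenase oxidises again, and a thiolase cuts off acetyl-CoA. The electrons of the first step pass through electron transfer flavoprotein to the respiratory chain. Peroxisomes take very long and branched chains through ABC transporters, run the same chemistry with an oxidase in the first step that makes hydrogen peroxide, and hand shortened chains on as carnitine esters. PPAR and ERR receptors are known regulators of many of these genes.

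With 4-OI, 21 of the 32 testable genes rose, 2 fell and 9 were not called (edgeR's quasi-likelihood test, Benjamini-Hochberg (BH) adjusted p under 0.05 over 13531 genes). Among all genes tested, 38.8% were called, 19.3% higher and 19.6% lower, against 65.6% higher and 6.25% lower of the testable genes of the list. Their median log2 fold change was 0.20, where the median of all genes tested was 0.00. Most changes were modest: Acadl was the only gene of the list past 2-fold, and Acaa2 the only other one past 1.5-fold. In CPM (counts scaled to library size and composition), the 4 libraries of each group did not overlap for 20 genes with 4-OI on top and 3 genes with DMSO on top, where 17.4% and 18% of all tested genes did so. In bulk RNA, fewer cells with a transcript and less of it per cell cannot be told apart.

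**Figure D1:**
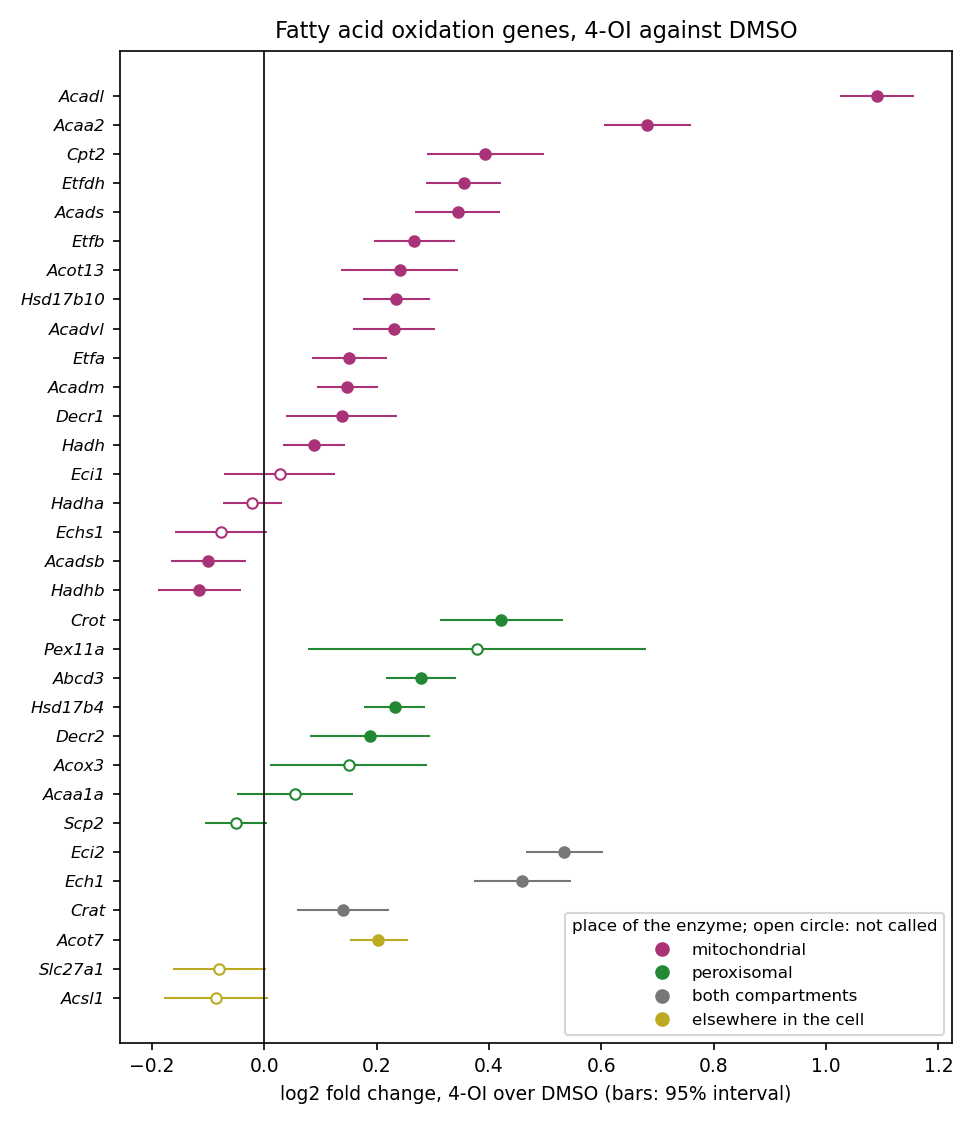
Log2 fold change of 4-OI over DMSO (horizontal axis) for the 32 testable genes, grouped by the place of the enzyme; bars are 95% intervals from the standard error and open circles were not called. Acadl stands alone at 1.09, the mitochondrial and peroxisomal groups both spread from slightly below 0 upward, and Hadhb and Acadsb are the 2 called genes left of 0.

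Promoter sequences from 4 places on the route are shown first, because they set risers of the carnitine step (Cpt2), the first oxidation (Acadl) and the isomerases (Eci2) beside the gene pair Hadha and Hadhb, which did not rise. Sequences came from the RefSeq promoter table (GRCm38.p6), which held 28 of the 33 genes. They cover the 250 bases before the start for Acadl (chr1:66863310-66863559, minus strand), Cpt2 (chr4:107923590-107923839, minus strand) and Eci2 (chr13:34994145-34994394, minus strand). Hadha and Hadhb point away from each other, with listed starts 273 bases apart. For this pair the sequence covers the 228 bases common to both promoter windows (chr5:30155003-30155230, plus strand, reading toward Hadhb). In the GENCODE M21 gene annotation, Hadha starts at 30155162 and Hadhb at 30155248, so part of this stretch lies inside Hadha there. The starts of Cpt2 and Eci2 also differ in that annotation (107923610 and 35027096). Capitals mark the GC box GGGCGG and the CCAAT box CCAAT on either strand.
Acadl: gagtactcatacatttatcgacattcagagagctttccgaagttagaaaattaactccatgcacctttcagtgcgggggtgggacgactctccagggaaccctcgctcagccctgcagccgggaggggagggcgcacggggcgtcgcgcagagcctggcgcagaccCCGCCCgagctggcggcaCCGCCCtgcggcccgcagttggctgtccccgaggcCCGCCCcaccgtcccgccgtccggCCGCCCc
Cpt2: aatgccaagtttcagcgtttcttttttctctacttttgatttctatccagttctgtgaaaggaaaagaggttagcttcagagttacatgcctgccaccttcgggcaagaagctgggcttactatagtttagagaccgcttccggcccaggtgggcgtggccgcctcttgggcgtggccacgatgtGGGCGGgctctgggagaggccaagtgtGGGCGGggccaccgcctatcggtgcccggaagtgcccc
Eci2: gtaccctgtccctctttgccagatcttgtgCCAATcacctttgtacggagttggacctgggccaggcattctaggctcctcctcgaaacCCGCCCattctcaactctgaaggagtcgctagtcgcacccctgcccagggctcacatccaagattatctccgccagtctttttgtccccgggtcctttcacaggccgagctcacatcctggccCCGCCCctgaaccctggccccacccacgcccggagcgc
Hadha-Hadhb: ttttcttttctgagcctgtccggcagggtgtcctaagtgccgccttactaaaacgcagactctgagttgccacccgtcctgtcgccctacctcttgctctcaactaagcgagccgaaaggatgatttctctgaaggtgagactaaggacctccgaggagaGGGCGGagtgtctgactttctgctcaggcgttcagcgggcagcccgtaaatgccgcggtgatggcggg

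Acadl had 4 GC boxes in this stretch, Cpt2 and Eci2 had 2 each, and the shorter Hadha-Hadhb stretch had 1. Over the full windows of 300 bases, Acadl had 4, Cpt2 and Eci2 had 3 each, Hadhb had 4 and Hadha 1, and the uncalled genes Acsl1 and Acox3 had 7 and 5, so called and uncalled genes were not separated by this number. Across the 32 promoter windows of 300 bases held for these genes, 25 had a GC box, against 35.7% of all 32851 promoters in the table, and 12 had a CCAAT box, against 37.4%. Their median GC content was 60.7%, against 52.7% over all promoters, and the GC box is itself made of G and C. The PPAR-RXR element, a direct repeat of the half-site AGGTCA with 1 base between, was in none of the 32 windows and in 0.04% of all promoters; the ERR element TCAAGGTCA was in none and in 0.42% of all. The antioxidant response element core TGACNNNGC was found at Scp2, which was not called, and at Ehhadh, which had too few counts for the fit. It was in 12.4% of all promoters. The half-site AGGTCA, which is contained in the direct repeat and in the ERR element, was found at Acadm, Acadvl, Echs1 and Scp2 and in 16.3% of all promoters. These are matches of letters in short windows on both strands, and enhancers farther away were not searched.

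The 3 carnitine genes of the list all rose, where 19.3% of all genes tested did. Cpt2, the inner-membrane transferase that returns long chains from carnitine to coenzyme A, measured 19.8, 20.2, 17.9 and 17.7 CPM in the DMSO libraries and 23.3, 25.4, 25.2 and 25.1 CPM with 4-OI. The groups did not overlap, and the log2 fold change (4-OI over DMSO) was 0.39 ± 0.05 (SE, edgeR BH-adjusted p = 6.13e-06). Crot, which makes carnitine esters of the medium chains leaving peroxisomes, had 22.3, 23.2, 25.4 and 23.9 CPM with DMSO and from 28.5 to 34.2 CPM in the 4-OI libraries, again without overlap. Its log2 fold change of 0.42 (standard error 0.06, edgeR BH-adjusted p = 5.14e-06) was the highest called among the peroxisomal genes. Crat, the acetyl-carnitine enzyme of both compartments, rose less, by 0.14 on the log2 scale (edgeR BH-adjusted p = 0.0117), and was not called on the authors' TPM values (limma adjusted p = 0.146); it shares 59 exon bases with the opposite-strand gene Dolpp1, which had a log2 fold change of -0.07. The entry enzyme Cpt1a, not itself on the list, went from 34.0 ± 0.91 to 105.9 ± 3.00 CPM (SD, n = 4), and Slc25a20, the carrier that moves acyl-carnitines across the inner membrane, from 15.8 ± 0.73 to 24.4 ± 0.65 CPM. Cpt1c, a relative of Cpt1a, was also higher (0.39), and the muscle form Cpt1b (0.25, at under 1 CPM) and the carnitine importer Slc22a5 (0.17) were not called (edgeR BH-adjusted p = 0.628 and 0.158).

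The acyl-CoA dehydrogenases of the first oxidation ranged from -0.10 to 1.09 in log2 fold change. Acadl, the long-chain acyl-CoA dehydrogenase, had 60.4, 62.1, 65.6 and 59.1 CPM with DMSO and 131, 125, 134 and 135 CPM with 4-OI. The lowest 4-OI library lay far above the highest DMSO library, and the log2 fold change was 1.09 ± 0.03 (SE, edgeR BH-adjusted p = 1.48e-15). Acads, for short chains, rose by 0.34 on the log2 scale (36.6 ± 0.96 to 46.5 ± 1.82 CPM, edgeR BH-adjusted p = 5.34e-07), and Acadvl, for very long chains, by 0.23 (73.3 ± 4.81 to 86.2 ± 1.27 CPM, edgeR BH-adjusted p = 5.42e-05). Exons of Acadvl overlap those of the opposite-strand gene Dvl2 over as many as 377 bases, and Dvl2 had a log2 fold change of 0.03 (edgeR BH-adjusted p = 0.549).

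Acadm, the medium-chain enzyme, had 90.4, 91.4, 94.99 and 90.95 CPM with DMSO and 105.0, 98.6, 101.1 and 102.6 CPM with 4-OI, a log2 fold change of 0.15 (standard error 0.03, edgeR BH-adjusted p = 0.000286). In TPM the same gene varied far more within the DMSO group, from 95.2 to 138 TPM, and the groups overlapped. Its standard deviation among DMSO libraries was 18.0 TPM around a mean of 120.1 TPM, but 2.08 CPM around a mean of 91.9 CPM, and no call was made on TPM (limma adjusted p = 0.243). Acadsb, which handles short branched chains from isoleucine, fell, with 47.3 ± 0.70 CPM in DMSO libraries and 44.1 ± 1.202 CPM in 4-OI libraries (log2 fold change -0.10, edgeR BH-adjusted p = 0.0251). The call was lost when DMSO replicate 1 or 3, or 4-OI replicate 1 or 2, was left out (edgeR BH-adjusted p = 0.0581, 0.0571, 0.0835 and 0.0557), with scaling by library totals (0.0597) and with DESeq2 (0.0651).

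Compared per length, the 5 dehydrogenases summed to 265 to 304 TPM in the DMSO libraries and 371 to 400.1 TPM in the 4-OI libraries. Acadl made up 17.0%, 17.7%, 18.8% and 18.7% of that sum with DMSO and 29.6%, 29.0%, 29.5% and 28.6% with 4-OI. Acadsb went from 9.85 ± 0.81% to 7.03 ± 0.28% (SD, n = 4), again without overlap, though its own TPM overlapped between the groups (28.5 ± 2.05 and 26.98 ± 0.70), whereas the shares of Acadm, Acadvl and Acads overlapped between the groups. Of the rise of 94.4 TPM in the mean sum, Acadl accounted for 59.7 TPM.

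**Figure D2:**
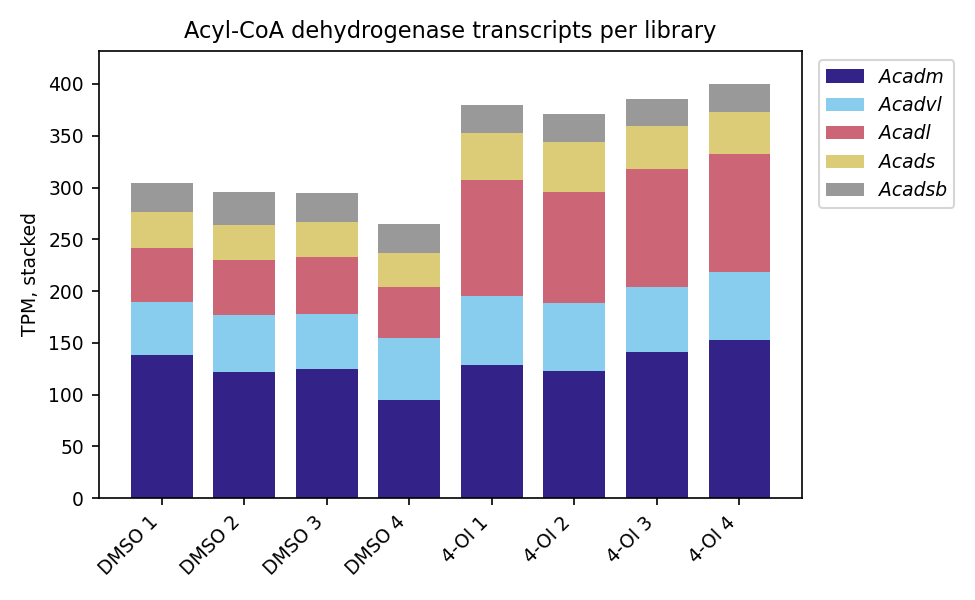
TPM of the 5 acyl-CoA dehydrogenase genes, stacked, in each of the 8 libraries (vertical axis in TPM, from 0). The Acadl segment makes up 28.6% to 29.6% of each 4-OI bar and 17.0% to 18.8% of each DMSO bar, and the low total of DMSO replicate 4 goes with its low Acadm value of 95.2 TPM.

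All 3 genes of the electron route from these dehydrogenases rose, where 19.3% of all genes tested did. Etfdh, the oxidoreductase that passes the electrons on to ubiquinone, had 54.0, 52.5, 53.3 and 49.1 CPM with DMSO and 68.5, 65.7, 65.8 and 66.9 CPM with 4-OI, a log2 fold change of 0.36 (standard error 0.03, edgeR BH-adjusted p = 6.61e-08). It shares as many as 278 exon bases with the opposite-strand gene 4930579G24Rik, which had a log2 fold change of -0.02 (edgeR BH-adjusted p = 0.719). The flavoprotein subunits Etfb and Etfa rose by 0.27 and 0.15 on the log2 scale (edgeR BH-adjusted p = 8.14e-06 and 0.00155). Their proteins pair in equal number, and the ratio of Etfb to Etfa in TPM was 1.40 ± 0.09 with DMSO and 1.59 ± 0.10 with 4-OI (SD, n = 4), and the lowest 4-OI value (1.48) stood just over the highest DMSO value (1.47); the same ratio taken in CPM overlapped between the groups.

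The later steps of the mitochondrial cycle divided. Acaa2, the thiolase for medium and short chains (chromosome 18, 74779197 to 74806208), had 29.2, 29.1, 30.1 and 30.4 CPM with DMSO and 49.7, 48.0, 48.1 and 45.1 CPM with 4-OI. The groups lay far apart, at a log2 fold change of 0.68 ± 0.04 (SE, edgeR BH-adjusted p = 3.93e-11). Hsd17b10, a dehydrogenase of short branched chains that is also a subunit of mitochondrial RNase P, rose by 0.23 on the log2 scale (65.7 ± 1.68 to 77.3 ± 1.72 CPM). Hadh, the dehydrogenase for short and medium chains, rose by 0.09, from 105 ± 2.55 to 111.7 ± 3.02 CPM (edgeR BH-adjusted p = 0.0163), a call that ended without DMSO replicate 4 (0.0734). Echs1, the short-chain hydratase, had 40.7 ± 2.07 and 38.5 ± 1.22 CPM (log2 fold change -0.08, edgeR BH-adjusted p = 0.15), and was called lower only with the replicate block plus GC and length correction among the alternatives run (-0.10, adjusted p = 0.0347).

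Hadha and Hadhb encode the 2 subunits of the trifunctional protein, which carries out the last 3 steps for long chains at the inner membrane. Hadha had 100.2, 97.4, 97.3 and 101.9 CPM with DMSO and 97.5, 99.9, 97.9 and 96.0 CPM with 4-OI, overlapping groups with a log2 fold change of -0.02 (95% interval -0.07 to 0.03, edgeR BH-adjusted p = 0.562). Hadhb had 38.3, 37.1, 36.2 and 38.4 CPM with DMSO and 33.9, 35.2, 34.96 and 34.5 CPM with 4-OI, a log2 fold change of -0.12 (standard error 0.04, edgeR BH-adjusted p = 0.0208). The call was lost when DMSO replicate 1, DMSO replicate 4 or 4-OI replicate 1 was left out (edgeR BH-adjusted p = 0.0583, 0.0583 and 0.074), with DESeq2 (0.0514), and on TPM, where the groups overlapped (limma adjusted p = 0.573). These are the genes that share the promoter stretch printed above, and neither was called higher. The ratio of Hadha to Hadhb in TPM overlapped between the groups, at 1.72 ± 0.21 with DMSO and 1.78 ± 0.09 with 4-OI (SD, n = 4).

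Enzymes for unsaturated fatty acids move or remove double bonds that block the cycle. Of the 5 on the list, 4 rose (80%), where 19.3% of all genes tested did. One of these calls, that of Decr1, was lost in 11 of the 19 alternatives. The 2 of the 5 that act in both compartments moved most. Eci2, an enoyl-CoA isomerase, had 37.4, 39.3, 40.1 and 39.7 CPM with DMSO and 55.6, 58.2, 57.3 and 55.3 CPM with 4-OI, a log2 fold change of 0.53 (standard error 0.04, edgeR BH-adjusted p = 1.97e-10). Ech1, a dienoyl-CoA isomerase, had 25.2, 26.8, 26.2 and 25.9 CPM with DMSO and 35.5, 35.8, 38.0 and 33.9 CPM with 4-OI, a log2 fold change of 0.46 (standard error 0.04, edgeR BH-adjusted p = 6.63e-08). Neither gene's groups overlapped. The peroxisomal reductase Decr2 rose by 0.19 on the log2 scale (edgeR BH-adjusted p = 0.00938).

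The mitochondrial counterparts moved less. Decr1, the mitochondrial dienoyl-CoA reductase, rose by 0.14 on the log2 scale (21.8 ± 1.11 to 24.0 ± 1.03 CPM, edgeR BH-adjusted p = 0.0356), with overlapping groups. The call was lost when DMSO replicate 1 or 4, or 4-OI replicate 1, 2 or 3, was left out (edgeR BH-adjusted p = 0.0963, 0.116, 0.0555, 0.0898 and 0.0999), with DESeq2 (0.0722) and with a correction for GC content and length (0.0967). Eci1, the mitochondrial isomerase, had 32.9, 37.4, 34.9 and 36.2 CPM with DMSO and 39.7, 34.8, 34.9 and 34.9 CPM with 4-OI. Its log2 fold change was 0.03 (edgeR BH-adjusted p = 0.709) and -0.01 without 4-OI replicate 1, the library that stood above the other three.

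Among the peroxisomal genes, 4 of the 8 testable ones rose (50%) and none fell (4-OI against DMSO, edgeR), where 19.3% of all genes tested rose and 19.6% fell. At an unadjusted p under 0.05 in edgeR, 0 were lower, and DESeq2 called 0 lower. Hsd17b4, the peroxisomal enzyme with hydratase and dehydrogenase activity (chromosome 18, 50128201 to 50196269), had 102.6, 105.5, 104.5 and 99.3 CPM with DMSO and 122.8, 123.9, 117.6 and 119.1 CPM with 4-OI, a log2 fold change of 0.23 (standard error 0.03, edgeR BH-adjusted p = 1.28e-06). Abcd3, a membrane transporter that brings acyl chains into peroxisomes, had 77.2, 77.6, 78.8 and 76.5 CPM with DMSO and 92.9, 90.3, 92.6 and 100.1 CPM with 4-OI, a log2 fold change of 0.28 (standard error 0.03, edgeR BH-adjusted p = 7.15e-07). Both stood above all DMSO libraries in every 4-OI library.

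Crot and Decr2, described above, were the other peroxisomal genes that rose, and the remaining testable ones were not called. Scp2, whose products include a sterol carrier and a peroxisomal thiolase, had 85.1 ± 1.37 and 82.1 ± 1.74 CPM (log2 fold change -0.05, edgeR BH-adjusted p = 0.161), but was lower after correction for GC content and length (-0.08, edgeR BH-adjusted p = 0.0133). Acaa1a, the 3-ketoacyl thiolase, had 26.6 ± 1.75 and 27.6 ± 1.55 CPM (log2 fold change 0.05, edgeR BH-adjusted p = 0.45); its near-identical copy Acaa1b had at most 2 counts in any library, and exons of Acaa1a overlap the opposite-strand gene Myd88 over as many as 223 bases (Myd88 log2 fold change 0.12). Acox3, an oxidase for branched chains, had a log2 fold change of 0.15 (edgeR BH-adjusted p = 0.107), and was called without 4-OI replicate 4 (0.19, adjusted p = 0.0473) and on TPM (limma, 0.34, adjusted p = 0.022). Pex11a, which takes part in peroxisome proliferation, had 1.56, 1.62, 1.54 and 2.05 CPM with DMSO and 2.32, 2.41, 1.962 and 2.21 CPM with 4-OI. Its log2 fold change of 0.38 was imprecise (standard error 0.15, edgeR BH-adjusted p = 0.0582), and the gene was called without DMSO replicate 4 (0.50, adjusted p = 0.0248) or 4-OI replicate 3 (0.43, adjusted p = 0.0485) and with scaling by library totals (0.40, adjusted p = 0.0481).

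Ehhadh, the peroxisomal bifunctional enzyme and a classical target of PPAR-alpha in liver, was close to the limit of detection. Its counts were 3, 4, 6 and 6 with DMSO and 3, 6, 3 and 5 with 4-OI, too few for the fit over all genes. Means were 0.18 ± 0.06 CPM and 0.15 ± 0.05 CPM (SD, n = 4), and an exact permutation test, two-sided, returned p = 0.457; 4 against 4 libraries cannot go under 0.0286. At so few counts, only a large difference in Ehhadh could have been detected.

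Placed side by side, the mitochondrial genes had 13 of 18 higher (72.2%) and 2 lower (11.1%), and their median log2 fold change was 0.19. The 8 testable peroxisomal genes had 4 higher (50%) and none lower, and their median was 0.21. Of all genes tested, 19.3% were higher and 19.6% lower. The lower counts depended on the processing. The mitochondrial count was 0 with DESeq2, limma or no filter on low counts, and 3 with the replicate block plus GC and length correction. The peroxisomal count was 1 (Scp2) with the GC and length correction. A difference between the compartments was not tested, since the genes were chosen with results known. The ranges differed more at the top than in the middle, with a highest log2 fold change of 1.09 for mitochondrial genes (Acadl) and 0.42 for peroxisomal ones (Crot). All 3 genes placed in both compartments were higher, at 0.14 to 0.53.

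Summed over genes, mitochondrial transcripts were 1097, 1105, 1127 and 1073 TPM with DMSO and 1343, 1292, 1331 and 1319 TPM with 4-OI. The mean was 1.201 times higher with 4-OI, and 1.14 times without Acadl and Acaa2. Peroxisomal transcripts were 301, 314, 312 and 310 TPM with DMSO and 326, 329, 326 and 319.5 TPM with 4-OI, a mean 1.05 times higher. Scp2 alone held 162 ± 5.95 TPM of the peroxisomal sum with DMSO and 152 ± 5.43 TPM with 4-OI (SD, n = 4), and without it the peroxisomal sum was 1.18 times higher. The peroxisomal share of the combined sum was 21.95 ± 0.41% with DMSO and 19.7 ± 0.36% with 4-OI, without overlap, but 11.8 ± 0.09% and 11.6 ± 0.20%, with overlap, once Scp2 was left out.

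**Figure D3:**
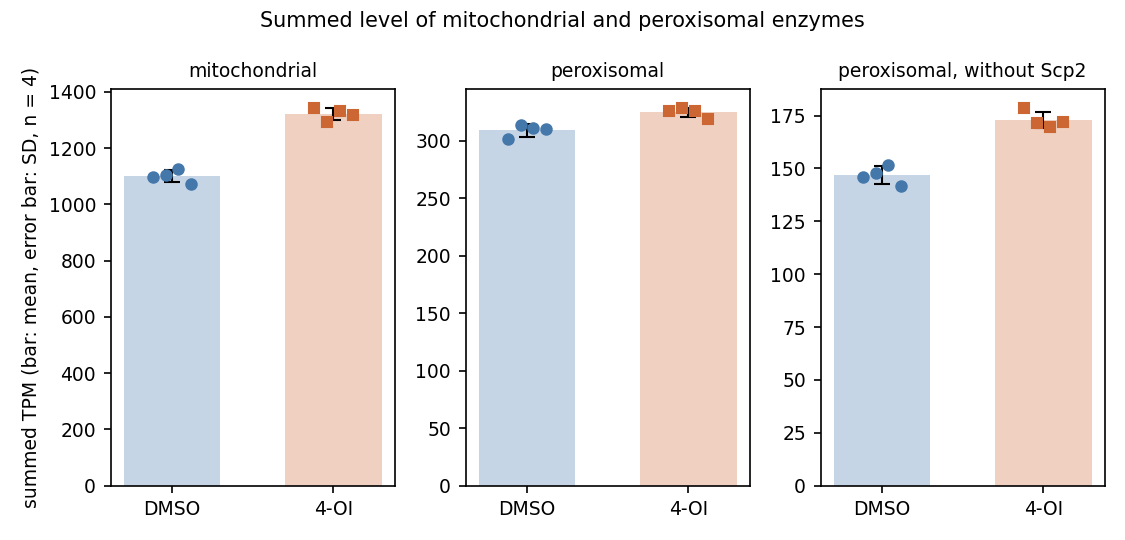
Summed TPM of the mitochondrial genes, the peroxisomal genes and the peroxisomal genes without Scp2 in DMSO and 4-OI libraries (vertical axes from 0; points are libraries, bars are means and error bars SD, n = 4). The 4-OI libraries lie above the DMSO libraries in each panel, with mean ratios of 1.201, 1.05 and 1.18.

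Genes counted with neither organelle gave a mixed picture. Acot7, a mainly cytosolic thioesterase that splits long-chain acyl-CoA, had 141, 137, 132 and 140.1 CPM with DMSO and 155.5, 159, 162 and 157 CPM with 4-OI, a log2 fold change of 0.20 (edgeR BH-adjusted p = 3.53e-06). Its mitochondria-associated relative Acot13 rose by 0.24 on the log2 scale (25.8 ± 2.05 to 30.5 ± 1.14 CPM, edgeR BH-adjusted p = 0.00114). The genes that take up and activate fatty acids were not called: Slc27a1, a fatty acid transport protein, had a log2 fold change of -0.08 (edgeR BH-adjusted p = 0.146), and Acsl1, a long-chain acyl-CoA synthetase, one of -0.09 (edgeR BH-adjusted p = 0.162). In CPM the 4-OI libraries of Acsl1 stayed at 18.8 to 20.7, under the 20.8 to 21.5 of the DMSO libraries, while in TPM the groups overlapped and the mean difference had the other sign.

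Levels per length differed widely within the list. In DMSO libraries, Acot7 was highest at 175 ± 8.39 TPM, followed by Scp2 at 162 ± 5.95, Hsd17b10 at 136 ± 3.28, Etfb at 124 ± 5.11 and Acadm at 120.1 ± 18.0 TPM (SD, n = 4). Of these neighbours in the order, Etfb and Acadm had overlapping ranges. At the low end stood Acsl1 at 8.24 ± 0.18, Acox3 at 3.65 ± 0.06, Pex11a at 1.38 ± 0.14 and Ehhadh at 0.09 ± 0.03 TPM. Of the 32 pairs of neighbours in this order, 16 had overlapping ranges.

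**Figure D4:**
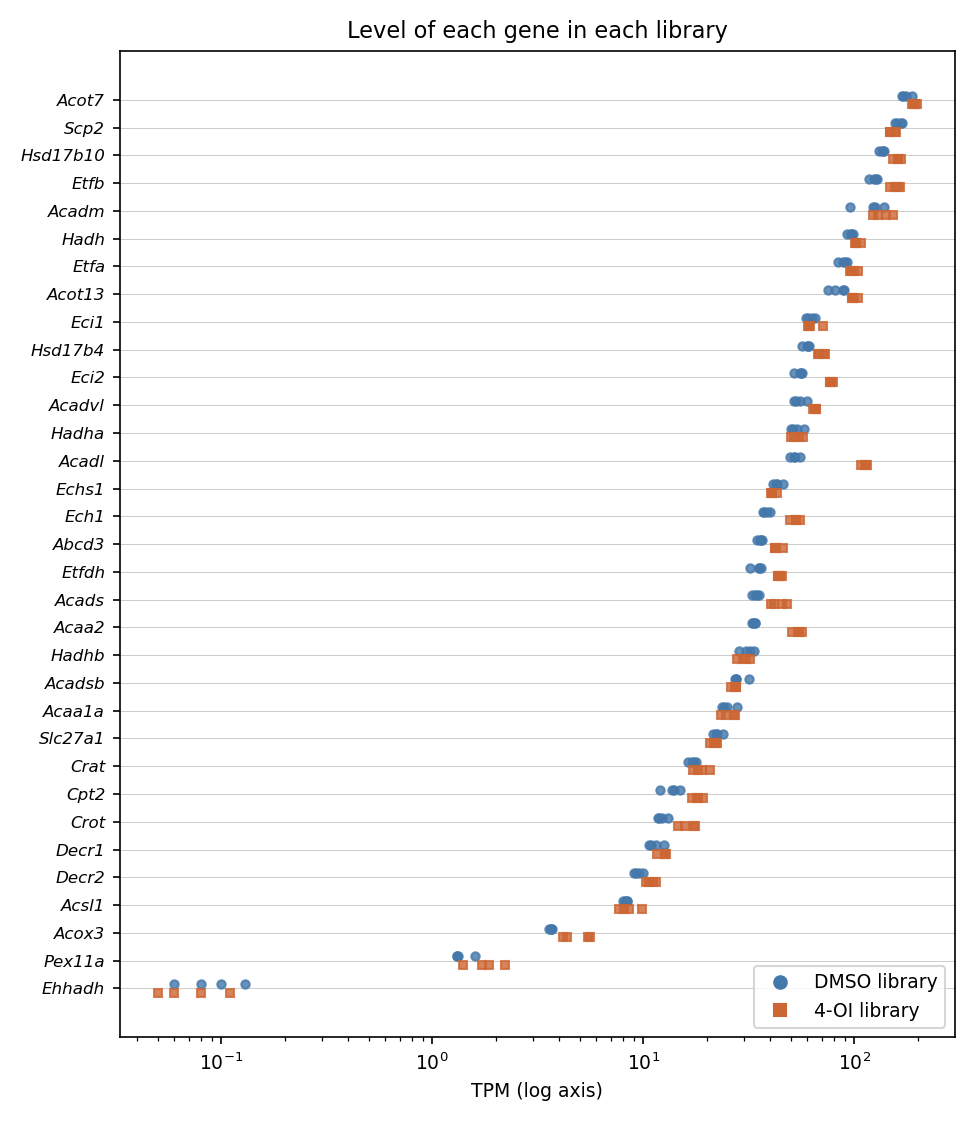
TPM of each of the 33 genes in each library (horizontal log axis), ordered by the DMSO mean, with circles for DMSO and squares for 4-OI. Acadl moves from a mean of 52.2 TPM to 112 TPM with 4-OI, Acadm shows the wide DMSO spread from 95.2 to 138 TPM, and Ehhadh lies far below all others.

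Other genes of fatty acid handling were read from lists drawn from general knowledge. Of 28 further testable genes of mitochondrial acyl-CoA metabolism, 11 were higher (39.3%) and 1 was lower (3.57%), namely Ivd, of leucine breakdown (-0.10). The median log2 change was 0.13. Among all genes tested, 19.3% were higher and 19.6% lower. Cpt1a (1.64), the mitochondrial thioesterase Acot2 (1.00), Slc25a20 (0.62) and the acyl-CoA synthetase Acsf2 (0.54) were the named risers. Of 22 further testable peroxisomal genes, 8 were higher (36.4%) and none lower, with a median of 0.11. Ephx2 (-0.58) and Nudt19 (-0.13) were lower at an unadjusted p under 0.05 in edgeR. The 8 higher genes included the peroxide-degrading enzyme Cat (1.36), the microsomal and peroxisomal glutathione transferase Mgst1 (1.55), Nudt12 (0.70) and Hsdl2 (0.67).

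Of 20 testable genes that build and divide peroxisomes, 7 were higher (35%) and 1 was lower (5%), with a median of 0.11. The higher genes included the import factors Pex13 (0.47) and Pex5 (0.16). The lower gene was the membrane channel Pxmp2 (-0.65, at under 2 CPM). In the list of uptake, binding, activation and storage, 9 of 23 were higher (39.1%) and 4 lower (17.4%) with a median of 0.04, where 19.3% and 19.6% of all genes tested were. Here Plin2, the coat protein of lipid droplets, went from 183 ± 4.45 to 329 ± 2.58 CPM (SD, n = 4), and the lipases Pnpla2 and Lipe rose by 0.56 and 0.93 on the log2 scale, while Fabp5, a fatty acid binding protein, fell by 0.35 and Slc27a3, Hilpda and Acsl5 were the other lower genes (-0.45, -0.20 and -0.10). Among the other synthetases of the Acsl family, Acsl3 (0.24) and Acsl4 (0.22) were higher.

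Among lipid sensors and their cofactors, 3 of 16 testable genes were higher (18.8%) and 2 lower (12.5%), shares no larger than the 19.3% and 19.6% of all genes tested. Ppard, the gene of PPAR-delta, measured 42.2 ± 0.69 CPM with DMSO and 59.9 ± 2.11 CPM with 4-OI (log2 fold change 0.50, edgeR BH-adjusted p = 3.93e-10), and its partners Rxra (0.28) and Rxrb (0.13) were also higher. Ppara, Pparg and the coactivator gene Ppargc1a had at most 12 counts in any library and fell below the filter of the fit. Nrf1 (-0.18), a factor for nuclear genes of mitochondrial proteins, was among the lower genes, and Esrra, the gene of ERR-alpha, was not called (0.10, edgeR BH-adjusted p = 0.14).

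**Figure D5:**
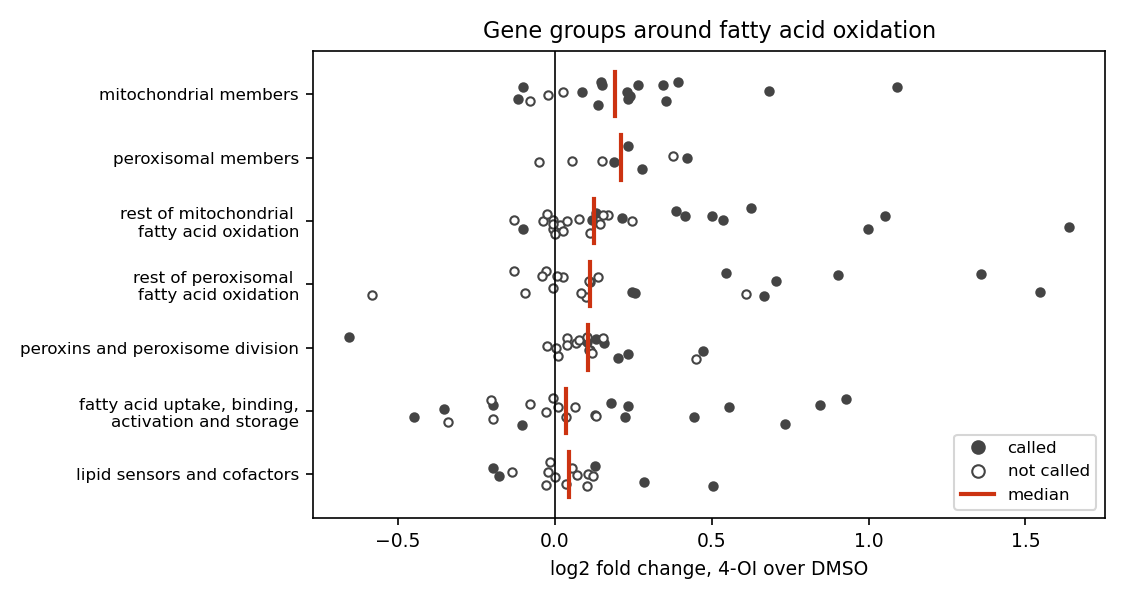
Log2 fold change of 4-OI over DMSO (horizontal axis) for the testable genes of the mitochondrial and peroxisomal parts of the list and of 5 other gene lists; filled points were called, open points were not, and red bars are medians. Medians run from 0.04 for uptake and storage genes to 0.21 for the peroxisomal genes, and each list holds genes on both sides of 0.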

How the data were processed

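RNA-seq of 4 DMSO and 4 4-OI libraries was used. Tools listed in the submitters' processing notes are RSEM 1.3.3, STAR 2.7.8a, cutadapt 2.3, MultiQC 1.7 and FastQC 0.11.8, and the build is GRCm38. Annotation release and strand setting: not given in the sources used here. The opposite-strand overlaps of Crat with Dolpp1 and of Acadvl, Etfdh and Acaa1a are therefore named beside these genes. Echs1 also overlaps Paox (142 bases, log2 fold change -0.23), and Hadha overlaps Garem2 (75 bases, 0.385). Neither Paox nor Garem2 was called. Acox3, Acsl1, Crat, Crot and Eci2 overlap other opposite-strand genes with a mean of at most 0.142 CPM. The authors deposited estimated counts (expected counts per gene), and every value in that table was already a whole number. The deposited TPM and FPKM tables hold the authors' values per length and depth.

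Counts were tested with edgeR 4.0.16 (R 4.3.3; filterByExpr with a minimum count of 10, TMM, quasi-likelihood F-test, all 8 libraries, no covariate), with Benjamini-Hochberg adjustment over 13531 genes. SE is the absolute log2 fold change over the root of F; 95% intervals are 1.96 SE either way. CPM uses TMM-scaled totals, except for Ehhadh's permutation test, which uses library totals. Chi-square over degrees of freedom between replicates was at least 1.9, so no library was counted as a repeat. Alternatives used DESeq2 1.42.0 and limma 3.58.1 on log2(value + 1) or log2(TPM + 0.1). The fit was tested on simulated data, where it missed some changes of every size tried, the smallest most often, and made some false calls.

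The genes and lists were chosen with earlier results of these data known. All 33 genes are named; of each other list, up to 4 called genes with the largest absolute log2 fold change and a mean of at least 5 CPM. Others named (Ivd, Ephx2, Nudt19, Pxmp2, Fabp5, Slc27a3, Hilpda, Acsl3, Acsl4, Acsl5, Rxrb, Esrra, Ppara, Pparg, Ppargc1a, Acaa1b, Cpt1b, Cpt1c, Slc22a5, Dcn and the overlapping genes) and the GC box, CCAAT box and half-site searches were chosen after values were seen. Coordinates of genes are from GENCODE M21 (GRCm38). Some genes of these lists are not reported here.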

Additional observations from a re-analysis of the deposited data

Results flagged for a closer look

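In 5 of 92 groups of 4 libraries, 1 library stood apart from the other three (by Dixon's ratio of gap to range); chance gives about 1 in 20 such groups. For Cpt2 with 4-OI, replicate 1 had 23.28 CPM and the others 25.08 to 25.43. For Etfb with DMSO, replicate 1 had 34.63 CPM and the others 36.16 to 36.41. For Eci1 with 4-OI, replicate 1 had 39.7 CPM and the others 34.75 to 34.92. For Pex11a with DMSO, replicate 4 had 2.05 CPM and the others 1.536 to 1.621. The ratio of Hadha to Hadhb in TPM was 2.039 in DMSO replicate 3 and 1.6 to 1.631 in the others.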

How the results depend on the processing

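Of the 23 called genes, 17 kept their call in all 19 alternatives. The count of higher genes stayed between 19 and 22. The 2 lower genes became 1 with library totals, 0 with no filter on low counts, DESeq2 or limma on any of the 3 scales, 4 with the replicate block plus GC and length correction, and 0 to 2 when 1 library was left out; the mitochondrial count of 2 became 1 with library totals, 0 with no filter, DESeq2 or limma, 3 with the block plus GC and length correction, and 0 to 2 with 1 library left out. The peroxisomal count of 0 lower became 1 (Scp2) with the GC and length correction, with or without the block. The median log2 fold change of all testable genes of the list was 0.214 with library totals, 0.22 with limma on log2(TPM + 0.1) and 0.179 to 0.209 with 1 library left out. The mitochondrial median was 0.163 with the GC and length correction, 0.162 with the block added, 0.217, 0.225 and 0.218 with limma on log2(TPM + 1), log2(FPKM + 1) and log2(TPM + 0.1), and 0.167 to 0.198 with 1 library left out. The peroxisomal median was 0.259 with limma on log2(TPM + 0.1) and 0.197 to 0.231 with 1 library left out. Over all genes, limma called 1620, 1535 and 1615 lower on these scales, against 2646. Uncalled genes changed sign as follows: Hadha to 0.001, 0.009 and 0.001 and Acsl1 to 0.047, 0.052 and 0.051 with limma on these scales, and Eci1 to -0.007 without DMSO replicate 1 and -0.015 without 4-OI replicate 1 (-0.015 to 0.054 over all left-out libraries). The causes were not tested.

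The main fit did not pair libraries by replicate number, and whether same-numbered libraries belong together is not known. Same-numbered libraries correlated at 0.463, -0.065, 0.185 and -0.033 in their deviations from the group means over 10066 genes. Differently numbered ones ranged from -0.332 to 0.271. With the replicate block, 21 genes of the list were higher and 2 lower, and 2525 and 2618 over all genes.

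Depth limits Ehhadh, with 3 to 6 counts per library, and Pex11a, near 2 CPM.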
